A study of Mus musculus with 54 samples.

Results

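Oxidative phosphorylation makes ATP in the inner mitochondrial membrane. Complexes I and II feed electrons from NADH and succinate into the chain, complex III passes them to cytochrome c, complex IV hands them to oxygen, and complex V, the ATP synthase, uses the proton gradient that complexes I, III and IV build. The subunits come from separate genomes, since the mitochondrial DNA encodes core subunits of complexes I, III, IV and V while complex II and all other subunits are encoded in the nucleus. In macrophages this pathway is known for its high use in resting and alternatively activated states, and for being set aside in favour of glycolysis after inflammatory activation.

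The genes described here are the oxidative phosphorylation genes, taken by symbol: names that start with mt-Nd, mt-Co, mt-Cytb or mt-Atp, or with Ndufa, Ndufb, Ndufc, Ndufs or Ndufv and a digit, the names Sdha to Sdhd, and names that start with Uqcr, Cox4 to Cox8 or Atp5, without pseudogene names ending in -ps. This gave 97 of the 43280 symbols in the tables, 13 encoded in the mitochondrial DNA and 84 in the nucleus. Of the nuclear genes, 37 were placed by their names in complex I, 4 in complex II, 8 in complex III, 18 in complex IV and 17 in complex V. Ndufa4 and Ndufa4l2 carry complex I names although Ndufa4 is now known as a complex IV subunit, and Atp5s and Atp5sl are named after the ATP synthase without being core subunits. Of the 84 nuclear genes, 76 were above 0 in at least 1 cell and 75 in at least 5 cells.

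The data are 54 single cells from mouse lung, labelled as interstitial macrophages, which live in the lung tissue between the airspaces. The labels give no strain, age, animal, treatment or plate, so the cells count as 1 sample, no p-value is given and spreads are over cells. RNA of each cell was copied along its full length (SMART-seq2, modified) and sequenced, and the values are TPM, transcripts per 1000000, a measure scaled for transcript length so that genes within a cell can be compared. The cells were divided by the mean log2(TPM + 1) of Prg4 (lubricin), Alox15 (a lipoxygenase) and Fn1 (fibronectin), genes known from macrophages of the serous cavities, into 23 cells at 7 or more, called Prg4/Alox15/Fn1-high here, and 31 cells under 7, called Prg4/Alox15/Fn1-low. No oxidative phosphorylation gene was used for this division. The values just inside were 7.31 and 7.76, in cells 31 and 20, and those just outside were 5.34 and 4.86, in cells 29 and 1.

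Of 8 macrophage markers, at least 3 were at 10 TPM or more in 23 of 23 high and 29 of 31 low cells. Of 11 further serous cavity markers, 11 were higher in the high cells by more than 1 in mean log2(TPM + 1). By the same size, 41.6% of all genes at 10 TPM or more in at least 10 cells were higher. The share was 20.8% of all genes above 0 in at least 5 cells. At least 3 of the 11 were at 10 TPM or more in 22 of 23 high and 1 of 31 low cells. The summed TPM of 9 alveolar macrophage markers ran from 5.19 to 5051 in the high and from 4.04 to 40588.7 in the low cells, and cells 31 and 40 held 5 of them at 10 TPM or more each. Fabp4, also known from other macrophages, reached 10 TPM in 16 high and 0 low cells. Pparg, a defining gene of alveolar macrophages, was under 10 TPM in all 54 cells. T or NK cell markers reached 10 TPM in 1 low cell alone, with a summed 5682 TPM there and at most 2.33 TPM over the high cells, and B cell markers did so in no cell. At least 1 of 6 monocyte markers reached 10 TPM in 10 high and 13 low cells. Of these, Ccr2 did so in 1 high and 12 low cells and Hp in 9 high and 0 low cells. At least 1 of 6 neutrophil markers did so in 7 high and 2 low cells. The high cells also had more genes at 10 TPM or more, between 792 and 3653 with a median of 1877, against 522 to 2239 with a median of 1413 in the low cells. Lyz2, the lysozyme gene, took a median of 14.8% of the TPM in the high and 2.62% in the low cells. In cell 31 only 0.075% of the values above 0 lay under 10 TPM, against a median of 40.5% over all 54 cells. The part of these features in the results was not tested beyond the values given beside them.

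Transcripts of the 13 mitochondrial genes made up between 1.08 and 6.05% of the TPM in the high cells, with a median of 3.88%, and between 0.299 and 11.7% in the low cells, with a median of 3.09%. The ranges overlapped over most of their length, and 18 of 23 high cells lay above the median of the low cells. The mean shares were 3.88 and 3.55% in the high and low cells, a difference of 0.336 percentage points. As a level, the mean log2(TPM + 1) of the 13 genes, the high cells averaged 7.82 ± 1.42 and the low cells 7.19 ± 1.62 (SD over 23 and 31 cells), a difference of 0.63, with 13 of 23 high cells above the median of the low cells. This difference was 0.18 among the 35 cells with 1300 to 2300 genes at 10 TPM or more (15 high and 20 low), and the difference of the median shares there was 0.719 percentage points, against 0.795 over all cells.

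The lowest mitochondrial levels, with the values as deposited, came from cells 31, 40 and 47. Cells 40 and 47, both low cells, had 0.299 and 0.321% on the mitochondrial genes, with 2.02 and 1.28% on the nuclear ones. Cell 31, a high cell, had 1.08 and 2.40%. The nuclear shares of cells 31 and 40 were thus the highest of their groups, while their mitochondrial shares were the lowest. Cell 8, a low cell, had the highest mitochondrial share, 11.7%. The level of the mitochondrial genes was under 4 in cells 31, 40 and 47 alone, with the next cell at 5.01. In cell 47 mt-Cytb stood at 0.89 TPM and mt-Atp6 and mt-Atp8 at 0, while mt-Co2 was at 1815 and mt-Nd1 at 985 TPM. In cell 40 mt-Nd2 alone passed 1000 TPM, at 2759 TPM. In cell 31 mt-Co1, mt-Cytb and mt-Nd1 stood between 3204 and 3364 TPM and 9 of the other 10 mitochondrial genes were at 0. As deposited, some mitochondrial genes were thus abundant in these cells while others were near or at 0. Part of the zeros of cell 31 stood beside values on near-identical nuclear copies, described below. Gm10925 (copy of mt-Atp6) stood at 5345, Gm28661 (mt-Co2) at 2653 and Gm28437 (mt-Co3) at 1425 TPM. Its mt-Nd2, mt-Nd6 and mt-Atp8, also at 0, have no such copy. With copies added its level was 6.22, above 6.06 in cell 50, while cells 40 and 47 stayed lowest at 4.44 and 3.88. Without cells 31, 40 and cell 36, which an earlier look at these data had set apart for markers of other cell types, the mitochondrial level differed by 0.70 and the nuclear level by 1.00.

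**Figure D1:**
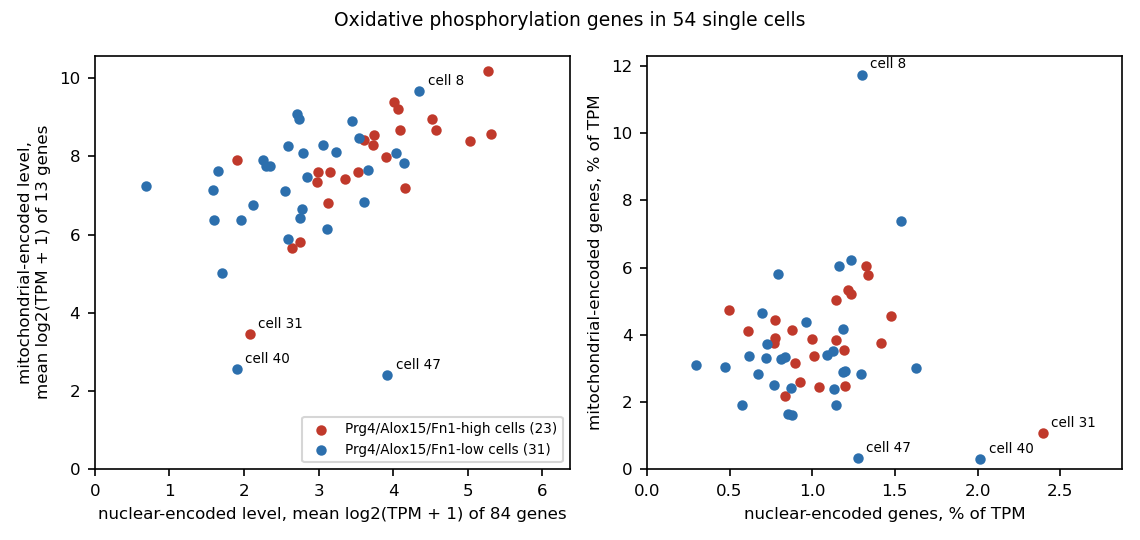
Level (left, mean log2(TPM + 1)) and share of TPM (right, %) of the 13 mitochondrial-encoded genes against the 84 nuclear-encoded genes, 1 point per cell, for 23 Prg4/Alox15/Fn1-high and 31 Prg4/Alox15/Fn1-low cells. Values are as deposited, without nuclear copies. Cells 31, 40 and 47 lie lowest on the mitochondrial axis of the left panel, and cell 8 has the highest mitochondrial share, 11.7%.

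As deposited, the mitochondrial genes fell into an abundant and a scarce set. For mt-Co3, mt-Nd4l and mt-Nd3, the scarcest, near-identical nuclear copies described below held 92.1, 97.9 and 94.5% of the summed TPM. Most mitochondrial genes are known to be cut from long transcripts that span the genome. mt-Nd1, a membrane subunit of complex I, ranged from 3047 to 13105.3 TPM with a median of 8217 in the high cells, and from 3.97 to 19249.4 TPM with a median of 5857 in the low cells. mt-Cytb, the cytochrome b of complex III, ranged from 1909 to 15069 TPM with a median of 6087 in the high cells, and from 0.89 to 25346 TPM with a median of 5883 in the low cells. These genes were above 0 in all 54 cells, and their groups overlapped.

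mt-Atp8, a small subunit of the ATP synthase membrane part, was at 0 in 1 high and 1 low cell and had medians of 7118 and 5637 TPM in the high and low cells. mt-Atp6, which forms the proton channel and overlaps mt-Atp8 on the same transcript, had medians of 10728.5 and 5283.5 TPM. mt-Co1, the catalytic subunit of complex IV, had medians of 4173 TPM in the high and 3983 TPM in the low cells.

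mt-Co2, the subunit that takes electrons from cytochrome c, had medians of 855 TPM in the high and 721 TPM in the low cells. Other complex I genes were lower than mt-Nd1. mt-Nd4 had medians of 928 and 954 TPM in the high and low cells, mt-Nd5 460 and 291 TPM, mt-Nd2 225 and 128 TPM, and mt-Nd6 233 and 132 TPM. mt-Nd6 lies on the other strand, and the protocol does not mark strand, so reads from either strand at that site cannot be told apart. mt-Co3, which encodes the third core subunit of complex IV, reached 10 TPM in 6 of 23 high and 1 of 31 low cells. mt-Nd4l did so in 1 high and 2 low cells and mt-Nd3 in 0 high cells and 1 low cell, with medians of 0 in both groups.

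The 3 scarcest genes have copies in the nuclear genome that the same tables list under pseudogene names, within a short stretch of chromosome 1. The stretches below, from the GENCODE M21 transcripts (GRCm38), show how alike they are. The last 60 bases of mt-Co3 (chrM:9331-9390, plus strand) stand beside the end of Gm28437 (chr1:24613189-24613247, minus strand), with the base that mt-Co3 has beyond the copy in capitals. The first 60 bases of mt-Nd3 (chrM:9459-9518, plus strand) stand beside those of Gm28438 (chr1:24613060-24613119, minus strand), with the differing base in capitals.
mt-Co3: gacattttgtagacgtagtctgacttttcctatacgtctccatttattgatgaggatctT
Gm28437: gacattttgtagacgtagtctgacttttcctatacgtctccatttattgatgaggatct
mt-Nd3: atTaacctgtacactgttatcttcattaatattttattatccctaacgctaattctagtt
Gm28438: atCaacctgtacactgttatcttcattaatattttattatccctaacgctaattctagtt

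Gm28437 matched mt-Co3 over all 783 of its bases with 0 differences. Gm28438 matched mt-Nd3 over 345 bases with 1 difference, T3C, counted from the first base of mt-Nd3. Gm10222 matched mt-Nd4l over 294 bases, Gm10925 matched mt-Atp6 over 678 and Gm28661 matched mt-Co2 over 681, each with 0 differences. Gm28439 matched 876 of the 1378 bases of mt-Nd4 with 0 differences, and Gm29216 aligned to 492 of the 1545 bases of mt-Co1 with 6 differences. Of the 51-base stretches of mt-Co3, the read length given in the labels, 99.9% also occurred in Gm28437, so a single read from there does not say which gene it came from. In all, 7 of the 13 mitochondrial genes shared at least 25% of their 51-base stretches with another gene's transcripts, as did 3 of the 84 nuclear genes.

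The values of these genes were split between gene and copy, and not evenly. Gm28437 ranged from 503 to 3764 TPM with a median of 1832 in the high cells, and from 7.86 to 5761 TPM with a median of 1218 in the low cells. Gm28437 was at 10 TPM or more without mt-Co3 in 46 cells, with it in 7 cells, and mt-Co3 stood without the copy in 0 cells. For mt-Nd4l and Gm10222 the copy stood alone in 36 cells and both were present in 3. Of the summed TPM over all cells, the copies held 92.1% for mt-Co3, 97.9% for mt-Nd4l and 94.5% for mt-Nd3, but 49.7% for mt-Co1, 32.6% for mt-Co2, 19.04% for mt-Atp6 and 0.230% for mt-Nd4. The sums for mt-Co1 and mt-Co2 include a further copy each, Gm13340 and Gm13341, which stayed under 10 TPM in all cells. For mt-Co1 the sum also adds values of a short and a long transcript, so it is not a count of mt-Co1 molecules.

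Summed with their copies, genes that looked absent stood beside their neighbours. mt-Co3 then ranged from 517 to 4614 TPM with a median of 1889 in the high cells, and from 7.86 to 5761 TPM with a median of 1218 in the low cells, at 10 TPM or more in 53 of 54 cells. mt-Nd4l had a median of 661 TPM in the high and 261 TPM in the low cells. mt-Atp6 was at 10 TPM or more in all 54 cells, cell 31 among them, where the deposited mt-Atp6 was 0 and Gm10925 stood at 5345 TPM. mt-Nd3 stayed low, at 10 TPM or more in 8 high and 9 low cells. The 13 genes with their copies held a median of 4.69% of the TPM in the high and 4.11% in the low cells. Why the values of a gene and its copy were divided as they were was not tested.

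**Figure D2:**
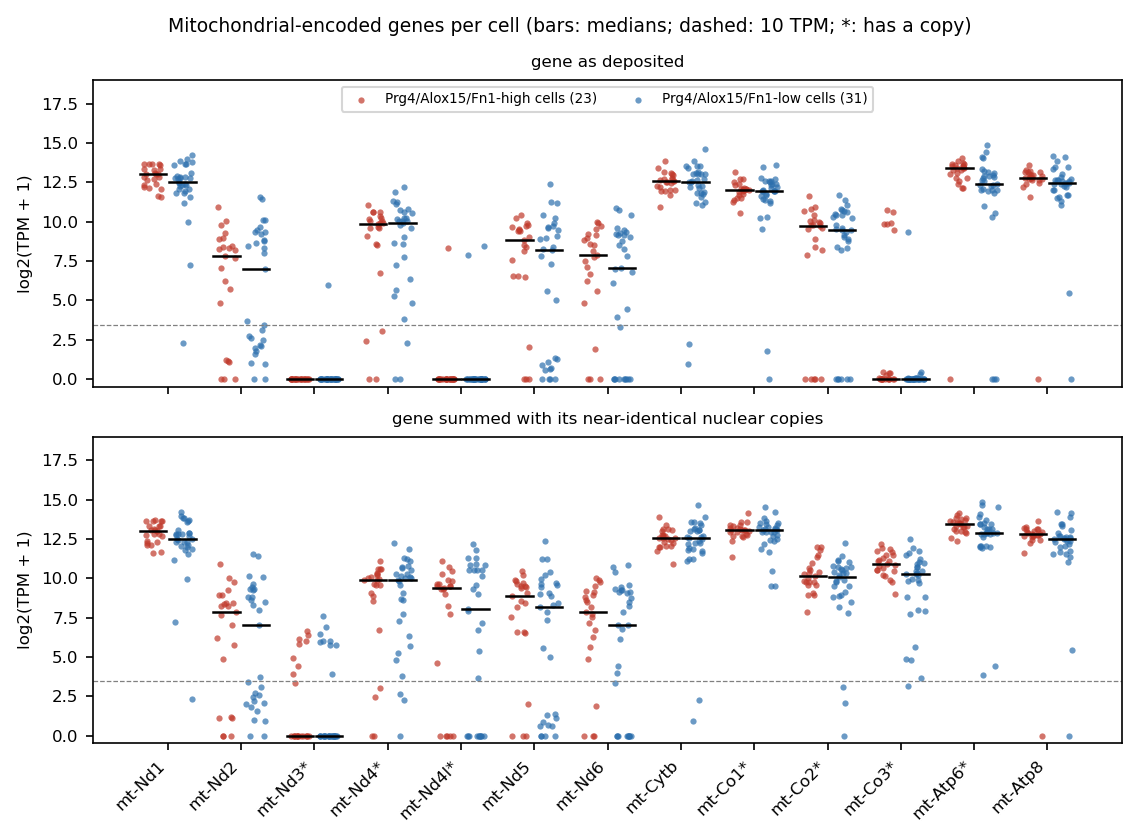
log2(TPM + 1) of each mitochondrial-encoded gene per cell as deposited (top) and summed with its near-identical nuclear copies (bottom), for 23 Prg4/Alox15/Fn1-high cells (left of each pair) and 31 Prg4/Alox15/Fn1-low cells, with bars at the medians and a dashed line at 10 TPM. mt-Co3 lies at or near 0 in most cells in the top panel and is at 10 TPM or more in 53 of 54 cells in the bottom panel.

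Gene by gene, 4 of the 13 mitochondrial genes were higher in the high cells by more than 1 in mean log2(TPM + 1) and 0 were lower by more than 1. For comparison, 41.6% of the 2948 genes at 10 TPM or more in at least 10 cells were higher by that size and 9.43% were lower, and of the 8529 genes above 0 in at least 5 cells 20.8% were higher and 5.57% lower. The 4 genes were mt-Co3 (2.36), mt-Nd5 (1.32), mt-Atp6 (1.26) and mt-Nd6 (1.04). With the copies added, the differences were 1.56 for mt-Co3 and 0.85 for mt-Atp6, and 3 genes were past 1. With the copies added 3 genes turned from lower to higher: mt-Co2 differed by -0.30 as deposited and by 0.99 with its copies, mt-Nd4l by -0.16 and 0.90, and mt-Nd3 by -0.19 and 0.31. The number of genes with a positive difference was 9 as deposited and 12 with copies. Among the 35 cells with 1300 to 2300 genes at 10 TPM or more the deposited mt-Atp6 differed by 0.25 and mt-Nd6 by 0.45. The deposited mt-Co2 differed by -1.60 among those 35.

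The nuclear genes were each present in part of the cells, and more of them were present in the high cells. At 10 TPM or more, a high cell held between 17 and 63 of the 84 nuclear genes with a median of 43, and a low cell between 6 and 49 with a median of 30. Over all cells 33 of the 84 genes reached 10 TPM in at least 27 of the 54 cells. The level of the 84 genes averaged 3.68 ± 0.92 in the high cells and 2.73 ± 0.86 in the low cells (SD over 23 and 31 cells), a difference of 0.95. Single cells ran from 1.91 to 5.31 in the high and from 0.69 to 4.35 in the low cells, and 20 of 23 high cells lay above the low median.

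The share of the TPM held by these genes was close in both groups. It ran from 0.496 to 2.40% with a median of 1.04% in the high cells, and from 0.298 to 2.02% with a median of 0.962% in the low cells. On the scale of log2 summed TPM the difference was 0.14. More nuclear genes were therefore found per high cell, while their summed share of the transcripts stayed near that of the low cells. By gene, 69 of the 84 were at 10 TPM or more in a larger share of the high cells and 7 in a smaller share. Counting only cells at 10 TPM or more, the mean log2 level was higher in the high cells for 18 of 75 genes found in both groups and lower for 57, with a median difference of -0.34. Over the 2948 genes at 10 TPM or more in at least 10 cells the direction was the same. Of them, 2227 were in a larger share of the high cells and 710 in a smaller share, with a median level difference of -0.44 where present. The median gap in the share of cells at 10 TPM or more was 16.3 percentage points for the 84 genes and 11.4 for the 2948.

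The nuclear level followed the number of genes present in a cell. Spearman's rho between the level of the 84 genes and the number of genes at 10 TPM or more was 0.890 over the 23 high cells and 0.794 over the 31 low cells. The share of TPM followed that number much less, with rho of 0.063 and 0.291. These values describe cells that share a protocol and a fixed TPM total, and the 84 genes are among those counted. Among the 35 cells with 1300 to 2300 genes at 10 TPM or more the level difference was 0.31, and 24 nuclear genes were higher by more than 1 and 10 lower. In those cells 28.7% of the 2948 genes were higher and 20.3% lower, with a median difference of 0.19 over them and of 0.38 over the 84. Only 73 of the 84 pass the filter behind the 2948, and 8 of the 84 were at 0 in all cells. These shares are therefore not like for like.

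**Figure D3:**
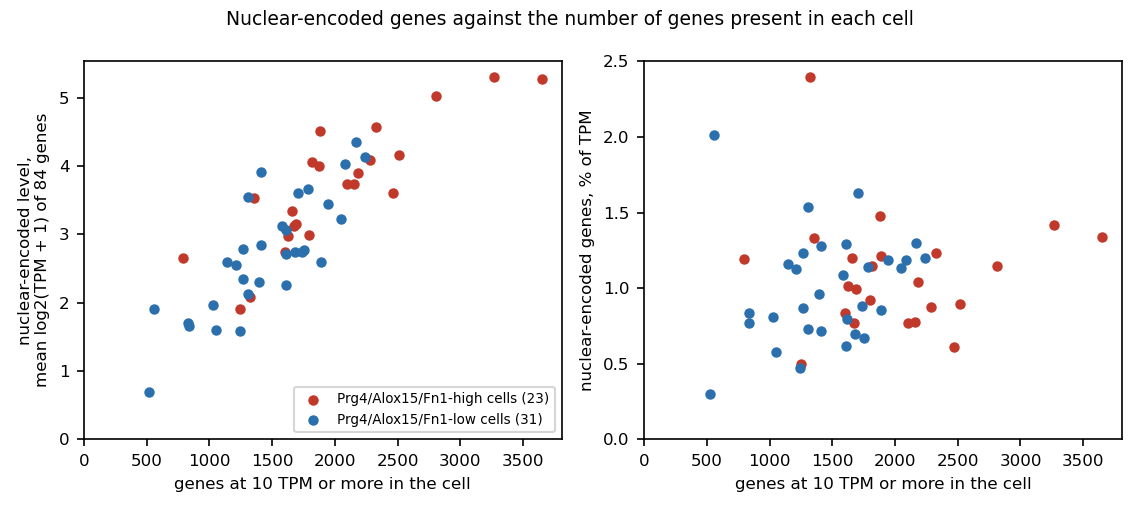
Level (left, mean log2(TPM + 1)) and share of TPM (right, %) of the 84 nuclear-encoded genes against the number of genes at 10 TPM or more, 1 point per cell, for 23 Prg4/Alox15/Fn1-high and 31 Prg4/Alox15/Fn1-low cells. The level climbs with the number of genes in both groups (rho 0.890 in the high and 0.794 in the low cells), and the share does so less (0.063 and 0.291).

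The mitochondrial and nuclear levels went together over cells. Spearman's rho between them was 0.759 over the 23 high cells (Pearson's r 0.728, and 0.771 without the 2 cells farthest from the median nuclear level). It was 0.371 over the 31 low cells (r 0.235, and 0.178 without 2 cells). Over all 54 cells rho was 0.573, and 0.210 with the number of genes at 10 TPM or more taken out. Between the shares of TPM, rho was 0.0998 in the high and 0.028 in the low cells. Pearson's r between the shares was -0.207 in the high and 0.086 in the low cells, and 0.405 and 0.333 without the 2 cells farthest from the median nuclear share, so these values rest on few cells.

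Over all 84 nuclear genes, 40 were higher in the high cells by more than 1 in mean log2(TPM + 1), or 47.6%, and 5 were lower, or 5.95%. The backgrounds were 41.6 and 9.43% of the genes at 10 TPM or more in at least 10 cells, a filter that 73 of the 84 passed, and 20.8 and 5.57% of those above 0 in at least 5 cells. The median difference was 0.97 over the 84 genes, against 0.73 and 0.19 over these backgrounds. Of the 73 nuclear genes that passed the first filter, 40 were higher and 4 lower. Over all cells, that is a larger share higher and a smaller share lower than among the 2948 background genes. The mean difference was 1.09 over the 73 and 0.79 over the 2948. Whether this gap exceeds the spread between cells was not tested. Among the cells with 2000 to 4000 genes above 0, 29 of the 84 were higher and 6 lower, against 34.9 and 14.7% of the 2948. The median differences there were 0.49 and 0.45. Among the 35 cells with like numbers of genes, 24 of the 84 were higher and 10 lower, against 28.7 and 20.3%. The medians there were 0.38 and 0.19. These counts cover all 84, so they are not like for like with the 2948. By complex and over all cells, 18 of 37 genes of complex I were higher and 4 lower, and 1 of 4 and 1 of 4 in complex II. In complex III 6 of 8 were higher and 0 lower, in complex IV 7 of 18 and 0, and in complex V 8 of 17 and 0. Of these genes, 1 of complex I and 7 of complex IV were at 0 in all cells. The 7 higher genes of complex IV were thus among 11 detected.

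**Figure D4:**
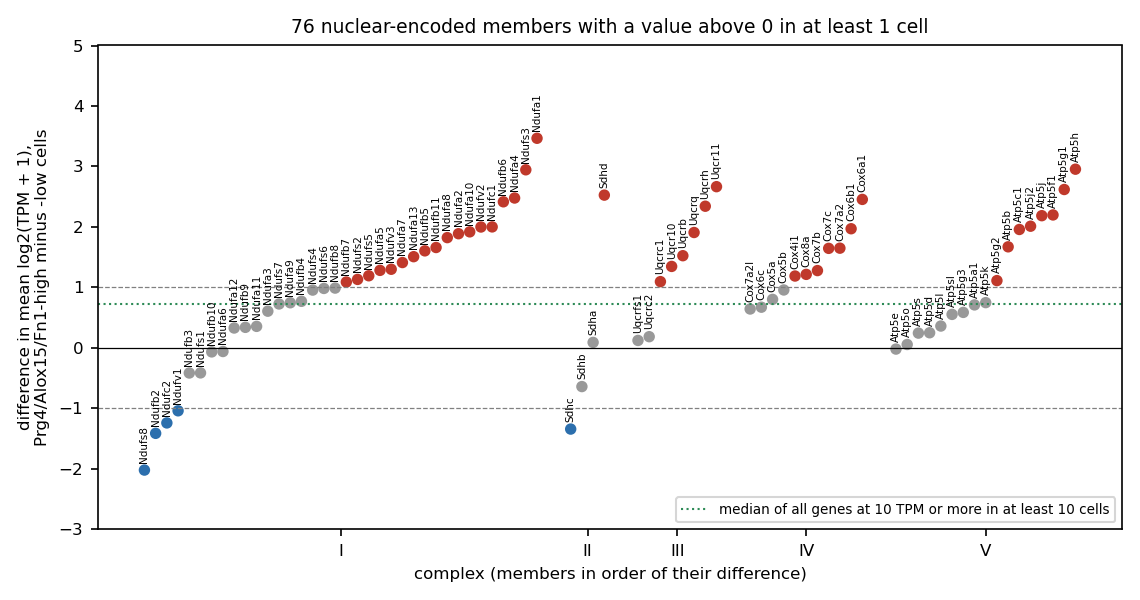
Difference in mean log2(TPM + 1), Prg4/Alox15/Fn1-high minus Prg4/Alox15/Fn1-low cells, of the 76 nuclear-encoded genes above 0 in at least 1 cell, by complex and in order of difference, with dashed lines at 1 and -1 and a dotted line at 0.73, the median of the 2948 genes at 10 TPM or more in at least 10 cells. The 5 genes under -1 are in complexes I and II.

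In complex I, which oxidises NADH, Ndufa1, a small membrane subunit known to be needed for assembly, had the largest difference in favour of the high cells. It ranged from 0 to 1313 TPM with a median of 75.4 in the high cells, and from 0 to 459 TPM with a median of 0 in the low cells. It was present at 10 TPM in 18 of 23 high cells, or 78.3% (exact binomial 95% interval 56.3 to 92.5%), and in 9 of 31 low cells, or 29.03% (14.2 to 48.04%). These intervals cover counting error only and treat cells as independent. Ndufa1 was also picked for its large difference, so they are no comparison of the groups. The difference in mean log2 level was 3.47, and 1.97 among the 35 cells with like numbers of genes.

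Ndufs8, an iron-sulfur subunit of the arm where electrons leave complex I for ubiquinone, went the other way. It ranged from 0 to 238 TPM with a median of 0 in the high cells, and from 0 to 1228 TPM with a median of 7.49 in the low cells. It was present at 10 TPM in 6 of 23 high and 15 of 31 low cells, so it was lower in the cells that held more genes. Its difference of -2.02 was -3.31 among the 35 cells with like numbers of genes, -2.86 among the cells with 2000 to 4000 genes above 0 and -1.99 without Lyz2 in the total.

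Ndufs3, a core subunit of the same arm named here after its values were seen, had the opposite direction to Ndufs8. It ranged from 0 to 484 TPM with a median of 27.2 in the high cells, and from 0 to 995 TPM with a median of 0 in the low cells. It was present in 13 of 23 high and 4 of 31 low cells, a difference in mean log2 level of 2.94, and of 3.27 among the 35 cells. Core subunits of the same arm thus differed in opposite directions.

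The other complex I genes lower by more than 1 were Ndufb2 (-1.42), Ndufc2 (-1.24) and Ndufv1 (-1.04), named here after their values were seen. Ndufv1, which carries the site that takes electrons from NADH, was present in 1 high and 5 low cells, while Ndufv2, its partner and named for that reason, was higher by 2.00 over all cells and by 0.58 among the 35. Ndufb2, Ndufc2 and Ndufv1 differed by -2.87, -2.33 and -2.14 among the 35 cells. The complex I genes with the highest mean level were Ndufb8, with medians of 222 TPM in the high and 36.6 TPM in the low cells, and Ndufa4, with 251 and 11.99 TPM. Ndufa4 was higher by 2.48 over all cells and by 0.66 among the 35.

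Promoter windows of these genes were read from RefSeq (GRCm38.p6, from 250 bases before to 50 bases after the start) for 66 of the 84 nuclear genes. They were searched on both strands for the core letters of binding sites of factors known to act on respiratory genes: GCGCATGC for NRF1, CCGGAAG for the ETS family, which includes GABP, and AAGATGGC for YY1. The NRF1 letters were found in 10 of the 66 genes, or 15.2%, against 3.05% of the 27025 genes in the table and 6.64% of the 2109 of them at 10 TPM or more in at least 10 cells. The YY1 letters were found in 9 genes, or 13.6%, against 3.19 and 6.78%. The ETS letters were found in 16 genes, or 24.2%, against 9.93 and 23.7%. A match is a description of the letters and is no sign of binding. Of the genes with a match, 5 of 10 for NRF1, 3 of 9 for YY1 and 11 of 16 for ETS were higher by more than 1 in the high cells, and 0, 0 and 1 were lower, beside 47.6% higher and 5.95% lower of the 84 nuclear genes and 41.6 and 9.43% of all genes at 10 TPM or more in at least 10 cells. Nothing is read from these small counts.

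Windows are shown for Ndufs3 and Ndufs8, which differed in opposite directions, and for Uqcr11, the complex III gene with the largest difference, with the matched letters in capitals. They lie at chr2:90904672-90904971 for Ndufs3, chr19:3912725-3913024 for Ndufs8 and chr10:80406772-80407071 for Uqcr11, all on the minus strand. Ndufs3 and Ndufs8 both hold the ETS letters, and Uqcr11 holds ETS and NRF1 letters.
Ndufs3: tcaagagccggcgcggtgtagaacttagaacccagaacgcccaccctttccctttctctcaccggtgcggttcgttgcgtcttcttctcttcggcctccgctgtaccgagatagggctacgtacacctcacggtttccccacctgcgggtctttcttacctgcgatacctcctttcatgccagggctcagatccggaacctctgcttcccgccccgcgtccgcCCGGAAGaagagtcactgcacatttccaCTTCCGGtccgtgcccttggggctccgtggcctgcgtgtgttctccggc
Ndufs8: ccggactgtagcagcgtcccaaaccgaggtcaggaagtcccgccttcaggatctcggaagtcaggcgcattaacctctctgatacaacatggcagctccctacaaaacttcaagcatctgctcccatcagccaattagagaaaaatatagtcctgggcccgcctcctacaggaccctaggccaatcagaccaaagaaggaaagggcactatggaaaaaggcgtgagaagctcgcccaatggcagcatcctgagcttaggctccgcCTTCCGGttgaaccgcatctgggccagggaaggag
Uqcr11: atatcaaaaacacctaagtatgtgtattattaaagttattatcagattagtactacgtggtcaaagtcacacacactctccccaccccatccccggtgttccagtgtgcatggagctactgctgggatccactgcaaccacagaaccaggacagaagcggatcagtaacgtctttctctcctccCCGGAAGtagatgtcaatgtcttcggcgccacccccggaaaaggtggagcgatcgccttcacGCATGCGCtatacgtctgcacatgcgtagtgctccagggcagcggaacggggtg

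Complex II, the succinate dehydrogenase of the citrate cycle, has no mitochondrial-encoded subunit and was the complex with the smallest level difference, 0.16. Sdhd, a membrane anchor, ranged from 0 to 1173 TPM with a median of 306 in the high cells, and from 0 to 1462 TPM with a median of 0 in the low cells, a difference of 2.52. Sdhc, the other membrane anchor, was present in 4 of 23 high and 9 of 31 low cells, a difference of -1.35. Without cells 31, 36 and 40 the difference of Sdhc was -0.75, and among the cells with 2000 to 4000 genes above 0 it was -0.41. Among the 35 cells with 1300 to 2300 genes at 10 TPM or more it was -1.54. Sdhb, the iron-sulfur subunit, had medians of 0 TPM in the high and 36.5 TPM in the low cells with a difference of -0.64 over all cells and of -2.09 among the 35, and Sdha, the flavoprotein, differed by 0.09.

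Complex III had the largest level difference of the 5 complexes, 1.40, with 4.38 ± 1.35 in the high and 2.98 ± 1.202 in the low cells (SD over 23 and 31 cells). Uqcr11, a small subunit, ranged from 0 to 664 TPM with a median of 98.6 in the high cells, and from 0 to 581 TPM with a median of 4.04 in the low cells, a difference of 2.66. Uqcrh, the hinge subunit, was present in 21 of 23 high and 17 of 31 low cells with medians of 84.5 and 54.8 TPM. It differed by 2.34. Uqcrc1, a core subunit, differed by 1.09 over all cells but by -0.66 among the 35 cells with like numbers of genes and by -0.32 among the cells with 2000 to 4000 genes above 0. Uqcrfs1, the Rieske iron-sulfur protein, differed by 0.12.

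Complex IV took most of its nuclear TPM from few genes. Cox7a2l, known as a factor that joins complexes III and IV into supercomplexes, held 42.996% of the TPM summed over the 18 genes, and Cox4i1 held 19.9%. Cox7a2l ranged from 0 to 2733 TPM with a median of 1000.2 in the high cells, and from 0 to 9163 TPM with a median of 781 in the low cells. Cox4i1 had medians of 444 TPM in the high and 403 TPM in the low cells. It differed by 1.19 over all cells and by -0.55 among the 35 cells. Cox6a1 had the largest difference, 2.45, with medians of 149 TPM in the high and 55.5 TPM in the low cells, and 0.87 among the 35.

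The isoforms of tissues other than the general one were not found. Cox4i2, an isoform known from lung and from low oxygen, the muscle and heart isoforms Cox6a2, Cox7a1 and Cox8b, the testis isoforms Cox6b2, Cox7b2 and Cox8c, and Ndufa4l2 were listed at 0 in all 54 cells. A gene at 0 in 54 cells allows up to 5.56% of cells with a listed value above 0 by counting error alone, which does not bound the share of cells that express it. Polrmt, the polymerase that transcribes mitochondrial DNA, was also listed at 0 in all 54 cells. Their general partners were present. At 10 TPM or more, Cox6b1 was found in 21 high and 20 low cells, Cox7a2 in 15 and 10, Cox7b in 11 and 5, and Cox8a in 21 and 22.

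In complex V, Atp5h, a subunit of the stalk that holds the ATP synthase still, ranged from 0 to 813 TPM with a median of 218 in the high cells, and from 0 to 287 TPM with a median of 0 in the low cells. It was present in 19 of 23 high and 14 of 31 low cells, and differed by 2.95 over all and by 2.42 among the 35 cells. Atp5b, the catalytic beta subunit, had medians of 384 and 59.0 TPM in the high and low cells and differed by 1.67. Atp5a1, the alpha subunit that pairs with it, had medians of 258 and 222 TPM, with a difference of 0.71 over all cells and of -1.67 among the 35. Atp5e, the epsilon subunit, differed by -0.02.

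The c subunit, which forms the turning ring, is made from Atp5g1, Atp5g2 and Atp5g3, whose mature proteins are the same. At 10 TPM or more, 0 of these genes were present in 3 high and 11 low cells, 1 in 7 and 14 cells, 2 in 9 and 4 cells, and all 3 in 4 and 2 cells. Their summed TPM ran from 0 to 788 with a median of 256 in the high cells, and from 0 to 1459 with a median of 75.8 in the low cells. Atp5g1 differed by 2.62, Atp5g2 by 1.11 and Atp5g3 by 0.58. Atp5g2 is uncertain, since 36.7% of its 51-base stretches also occur in Gm10175, which had medians of 78.4 TPM in the high and 0 TPM in the low cells, and since its difference was -1.18 among the 35 cells.

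**Figure D5:**
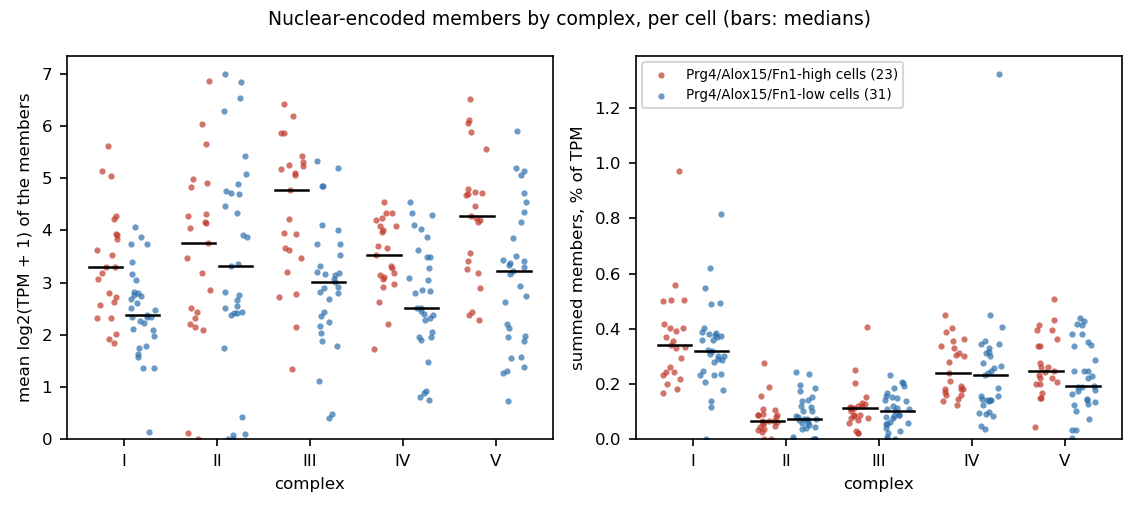
Level (left, mean log2(TPM + 1) of the members) and share of TPM (right, %) of the nuclear-encoded genes of complexes I to V per cell, for 23 Prg4/Alox15/Fn1-high cells (left of each pair) and 31 Prg4/Alox15/Fn1-low cells, with bars at the medians. The level of complex III differs most (1.40) and that of complex II least (0.16), while the shares of all 5 complexes overlap over most of their ranges.

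Other mitochondrial genes were read from lists chosen by function. Their counts stand beside 41.6% higher and 9.43% lower among genes at 10 TPM or more in at least 10 cells, and 20.8 and 5.57% among genes above 0 in at least 5 cells. Of 12 carriers and exchangers, 6 were higher in the high cells by more than 1 and 0 lower, with Vdac3, an outer membrane channel (3.003), and Mpc2, part of the pyruvate carrier (2.61), farthest apart. Of 16 genes of the citrate cycle and pyruvate dehydrogenase, 8 were higher and 0 lower, with Pdhb at 2.95 and Idh3a at 1.79. Of 41 assembly factors, 6 were higher and 0 lower, with Cox16 at 1.90 and Cox14 at 1.85, both complex IV assembly factors. Of 12 genes for mitochondrial DNA upkeep and RNA, 2 were higher and 0 lower, among them Slirp, which stabilises mitochondrial messenger RNA, at 1.12, while Ssbp1, the single-strand DNA binding protein, differed by 0.40.

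Of 9 nuclear regulators of respiratory genes, 0 were past 1 in either direction, and their summed TPM had a median of 1.45 in the high and 2.08 in the low cells, so most were near 0 in most cells. Hif1a, the factor of low oxygen, reached 10 TPM in 7 high and 6 low cells. Of 7 antioxidant genes, 6 were higher and 0 lower, beside the backgrounds of 41.6 and 20.8% higher. Gpx4, which removes lipid peroxides, ranged up to 2219 TPM with a median of 590 in the high cells, and up to 1003 TPM with a median of 2.83 in the low cells, a difference of 3.68. Prdx5, a peroxiredoxin, had medians of 452 TPM in the high and 2.72 TPM in the low cells, a difference of 3.56. The median differences of the lists were 0.84 for carriers, 0.99 for the citrate cycle and 0.36 for assembly factors. They were 0.22 for DNA upkeep and RNA, 0.02 for regulators and 2.38 for antioxidants. The background medians were 0.73 over genes at 10 TPM or more in at least 10 cells and 0.19 over genes above 0 in at least 5 cells. Most assembly factors, upkeep genes and regulators did not pass the first filter, so 0.73 is not like for like for them.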

How the data were processed

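The deposited values are TPM, 1 table per cell with 43280 gene symbols, and RSEM was used by the authors, per the submitters' processing notes. Neither its version nor the aligner, build and annotation are given in the sources used here. Each cell summed to at least 997509 TPM. The unit holds no read numbers, which leaves sequencing depth unknown. Symbols were matched as spelled in the tables, with RefSeq synonyms (GRCm38.p6) for older names in the marker and pathway lists.

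Levels are log2(TPM + 1), which understates changes of low genes, and a list level is their mean over all members. A difference is the mean over high cells minus that over low cells, and 1 was the size counted. All 54 cells carry 1 label and count as 1 sample, so no test was run. The genes named are all mitochondrial members, and in each complex the 2 nuclear genes with the highest level and, among genes at 10 TPM or more in at least 10 cells, the largest difference in each direction, the known isoform families, and the 2 largest differences of each further list. Members and lists were chosen with earlier results of these data known. Sequences shared between genes were counted as 51-base stretches of GENCODE M21 transcripts. The difference step was checked on values of these cells shuffled within each gene, with known fold changes put into some genes of the high cells. This covers the arithmetic alone, and not missed transcripts or unlike numbers of genes per cell. Python 3.11.15, numpy 2.4.6, pandas 2.3.3 and scipy 1.17.1 were used. The tables of 0 pairs of cells were identical.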

Additional observations from a re-analysis of the deposited data

How the results depend on the processing

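The 4 summary values (the level differences, the share difference and the correlation) kept their direction under the alternatives run, unlike single genes. The gene counts have no direction to change. Most of these values and counts stayed within 1.5 times of their main value, with these exceptions. The mitochondrial level difference of 0.63 was 1.08 with the marker threshold at 8, 0.37 between medians, 0.33 for summed TPM and 0.18 in cells with 1300 to 2300 genes at 10 TPM or more. The nuclear level difference of 0.95 was 0.49 with a pseudocount of 10, 0.59 in cells with 2000 to 4000 genes above 0, 0.14 for summed TPM and 0.31 in cells with 1300 to 2300 genes at 10 TPM or more. The difference in mitochondrial share of 0.795 percentage points was 1.34 with Lyz2 left out of the total and 0.266 for the genes without near-identical copies. The correlation of 0.573 was 0.371 in the low cells, 0.356 given the genes above 0 and 0.210 given the genes at 10 TPM or more. The 40 nuclear genes higher by more than 1 were 18 with a pseudocount of 10 and 24 in cells with 1300 to 2300 genes at 10 TPM or more. The 5 lower were 1 with a pseudocount of 10, 3 with the threshold at 8 and 10 in cells with 1300 to 2300 genes at 10 TPM or more. The cause of these shifts was not tested.

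Leaving out each of the 54 cells in turn gave 0.47 to 0.83 for the mitochondrial and 0.87 to 1.03 for the nuclear level difference, 0.700 to 0.820 for the share, 0.549 to 0.623 for the correlation, 37 to 44 higher genes and 4 to 5 lower ones. Summing genes with their copies, using only genes without copies, the range of genes at 10 TPM or more, the correlation given that number and the removal of single cells were chosen after seeing the data. Over the alternatives for single genes, 22 of the 84 nuclear genes changed sign in at least 1, among them 5 of the 45 past 1, Atp5g2, Cox4i1, Cox6b1, Ndufa5 and Uqcrc1. Of the mitochondrial genes as deposited, mt-Atp8, mt-Nd2 and mt-Nd4 changed sign in at least 1. No paired analysis was possible all cells carry the same single label. With no read numbers, a value of 0 may be a transcript that was missed.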

Other observations

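The ratio of mitochondrial to nuclear TPM of oxidative phosphorylation genes ran from 0.450 to 9.55 with a median of 3.89 in the Prg4/Alox15/Fn1-high cells, and from 0.148 to 10.4 with a median of 3.52 in the low cells. With the copies added the medians were 4.67 and 4.63. The mitochondrial ribosomal RNAs mt-Rnr1 and mt-Rnr2, which the ribosomes that translate the 13 genes are built on, held medians of 0.076 and 0.072% of the TPM in the high and low cells.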
